A study of Mus musculus with 5 samples.

Results

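The endoplasmic reticulum (ER) folding and unfolded protein response module is a list of 43 genes, taken by gene symbol from a table of 17657 protein-coding genes. It was read in cultured epidermal stem cells (progenitors that renew the keratinocytes of skin) from Angptl4 knockout mice (KO, libraries KO1 and KO2) and wild-type mice (WT, libraries WT1, WT2 and WT3). Angptl4 encodes a secreted inhibitor of lipoprotein lipase. The mice of both genotypes were C57BL/6 males labelled 8 weeks, and the cells were grown in KGM2, a keratinocyte medium. The labels name neither the knockout allele nor the number of animals or cultures behind a library. P-values therefore measure only the spread between these 5 libraries, which may be technical. Of the 43 genes 42 were found, 41 by symbol and Ero1lb under its newer name Ero1b, whereas the listed name Crelld1 matched no gene. All 42 passed the filter on low counts, on 17 chromosomes, as part of 12957 genes tested.

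Secreted and membrane proteins enter the ER through the Sec61 channel, fold there with the help of chaperones and disulphide isomerases, and are sent to the proteasome by ER-associated degradation when folding fails. When unfolded proteins build up, the membrane sensors IRE1 (Ern1), PERK (Eif2ak3) and ATF6 start the unfolded protein response. IRE1 splices Xbp1 mRNA, ATF6 is cut to release a transcription factor, and PERK slows translation and favours ATF4 and CHOP. The XBP1 and ATF6 factors bind short promoter elements, above all the ER stress response element (ERSE), and raise the genes of the folding and degradation machinery. Keratinocytes use this machinery for basement membrane proteins, cell adhesion molecules and secreted lipid and matrix enzymes.

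The ERSE sites are shown because these elements are the known handle of the pathway on its genes. The RefSeq promoter windows of GRCm38.p6 run from 250 bases before to 50 bases after an annotated gene start, and 36 of the 42 genes had at least 1 window. Each window was searched on both strands, with no mismatch allowed, for the ERSE (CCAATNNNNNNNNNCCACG), the ERSE-II (ATTGGNCCACG) and the UPRE (TGACGTGG). These letters do not overlap in any pair of hits in the module. The ERSE was in 39 of 32851 windows of all genes (0.119%) and in windows of 10 genes of the module. The ERSE-II was in 12 windows (0.0365%) and the UPRE in 222 windows (0.676%), with 2 genes of the module each, Dnajb11 and Herpud1 for the ERSE-II and Txndc11 and Txndc5 for the UPRE. The sites are printed 5′ to 3′ on the strand that carries the motif, with its fixed letters in capitals and the spacer in lower case.
Hspa5, ERSE: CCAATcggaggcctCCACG
Derl3, ERSE: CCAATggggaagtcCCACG
Creld2, ERSE: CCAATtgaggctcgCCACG
Hsp90b1, first ERSE: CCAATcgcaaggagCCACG
Hsp90b1, second ERSE: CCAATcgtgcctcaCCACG
Ero1b, ERSE: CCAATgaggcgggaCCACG
Syvn1, ERSE: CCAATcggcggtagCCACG
Pdia6, ERSE: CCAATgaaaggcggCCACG
Calr, ERSE: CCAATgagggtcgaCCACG
Dnajc3, ERSE: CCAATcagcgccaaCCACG
Canx, ERSE: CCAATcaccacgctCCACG
Herpud1, ERSE-II: ATTGGgCCACG
Dnajb11, ERSE-II: ATTGGcCCACG
The 250 bases before the start are shown for Hspa5, the central chaperone of the pathway, and for Derl3, the largest change of the module. Both windows lie on the plus strand, chr2:34771840-34772089 for Hspa5 and chr10:75893148-75893397 for Derl3. The ERSE letters are in capitals, read on the minus strand in Derl3.
Hspa5 promoter: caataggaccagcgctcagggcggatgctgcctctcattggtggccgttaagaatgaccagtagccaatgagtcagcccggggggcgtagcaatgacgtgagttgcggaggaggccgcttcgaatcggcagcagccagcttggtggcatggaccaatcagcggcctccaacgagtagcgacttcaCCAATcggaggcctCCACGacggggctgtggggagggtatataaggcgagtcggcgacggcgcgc
Derl3 promoter: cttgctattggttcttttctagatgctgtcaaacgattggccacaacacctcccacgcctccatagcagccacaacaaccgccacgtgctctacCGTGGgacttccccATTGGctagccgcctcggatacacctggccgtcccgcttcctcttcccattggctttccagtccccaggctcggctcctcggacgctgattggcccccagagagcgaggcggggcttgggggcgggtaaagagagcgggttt
A match describes the letters in a window and is neither a bound site nor a cause of any value given here.

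The libraries held 20283084 to 20773407 expected counts. The KO libraries stood apart from each other as well as from WT. In a principal component analysis, KO and WT separated on an axis with 72.8% of the variance, and the KO libraries lay at opposite ends of the next axis, with 18.7%. The biological coefficient of variation was 28.8% in KO and 5.22% in WT. Angptl4 itself was at 0.86 and 1.11 TPM (a transcript abundance scaled for length and library) in KO1 and KO2, against 7.34, 6.09 and 4.34 TPM in WT1, WT2 and WT3 (log2 change of KO over WT -2.56 ± 0.32, SE, edgeR adjusted p = 0.00458, 2 and 3 libraries), so the libraries went with their labels. That call did not hold with a separate spread for each group (adjusted p = 0.127). The 10 basal keratinocyte markers, Krt5 and Krt14 among them, were detected in every library and summed to 52462 and 40222 TPM in KO1 and KO2, against 41284 to 42328 TPM in WT. Krt5 and Krt14 made up most of these sums, and other markers of the list differed in direction, such as Trp63 at 189 and 164 TPM in KO1 and KO2, against 332 to 333 TPM in WT, and Itga6 at 216 and 199 TPM, against 369 to 421 TPM.

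The question put to the module was how the folding and stress genes differed between KO and WT cells, with the KO libraries read apart because of their distance. KO2 held most of these transcripts at high levels, and KO1 lay much nearer to WT. The summed level of the 42 genes was 7082 TPM in KO1 and 20383 TPM in KO2, against 5950, 5850 and 5550 TPM in WT1, WT2 and WT3, that is 0.708 and 2.04% of the transcripts in KO1 and KO2 against 0.555 to 0.595% in WT. KO2 was thus far outside the range of the other 4 libraries. In RNA of whole cultures, a change in the share of a cell type and a change in RNA per cell cannot be told apart.

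By edgeR's quasi-likelihood test over both KO libraries, 18 of the 42 genes rose (42.9%), 1 fell (2.38%) and 23 did not pass an adjusted p (Benjamini-Hochberg) of 0.05. Of the 23, 8 had an adjusted p between 0.05 and 0.1, and 27 of the 42 genes had an unadjusted p under 0.05. Of all genes tested 20.4% rose and 20.4% fell. The median log2 change was 0.83 over the module and 0.02 over all genes tested. The genes that rose were Calr, Creld2, Derl3, Edem1, Edem2, Eif2ak3, Manf, P4hb, Pdia4, Pdia5, Pdia6, Sdf2l1, Sec11c, Sec61b, Syvn1, Txndc11, Txndc5 and Xbp1, and the gene that fell was Ssr1. The count rested on all 3 WT libraries. Without WT1, 2 rises were left (Edem2 and Eif2ak3), without WT2 1 and without WT3 1 (Eif2ak3 both times), with no fall left. Over all genes 980, 1133 and 1116 rises were left without WT1, WT2 and WT3, of 2638 with all libraries. The module's larger share of rises was thus not kept in these fits. With a separate spread per group, 16 genes rose and 1 fell, where 1625 of all genes rose and 1567 fell. Derl3, Edem2 and Sec61b lost their calls there. DESeq2's test kept all 19 calls and added 9, Hspa5, Hsp90b1 and Hyou1 among them, where 2835 of all genes rose and 2863 fell. With limma-voom 11 genes of the module rose, where 2519 of all genes rose. With limma on log2(TPM + 1) 8 rose, where 2111 of all genes rose. The module's count thus fell further under limma than the count over all genes.

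Each KO library was then set against WT alone, the lone library being assumed to vary like the WT libraries. The spread between the KO libraries was wider than that (biological coefficient of variation 28.8%, against 5.22% in WT). These fits thus call too many genes, in the module and among all genes, and describe single libraries rather than the genotype. With KO1 left out, 38 of the 42 genes were higher in KO2 than in WT (90.5%) and 2 were lower (4.76%), Spcs1 and Ssr1, where 29.3% of all genes tested were higher and 30.5% lower. With KO2 left out, 23 were higher in KO1 than in WT (54.8%) and 7 lower (16.7%), Ern1, Fkbp11, Sec61a1, Herpud1, Derl1, Canx and Ssr1, where 30.0% of all genes tested were higher and 30.9% lower. The median ratio to the WT mean was 1.17 in KO1 and 2.56 in KO2, and at least 2-fold higher levels were found for 1 gene in KO1 (2.38%, Derl3) and 25 genes in KO2 (59.5%), against 8.49 and 8.05% of all genes tested. KO1 and KO2 share the WT libraries in these ratios, so the fits are not independent of each other.

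**Figure D1:**
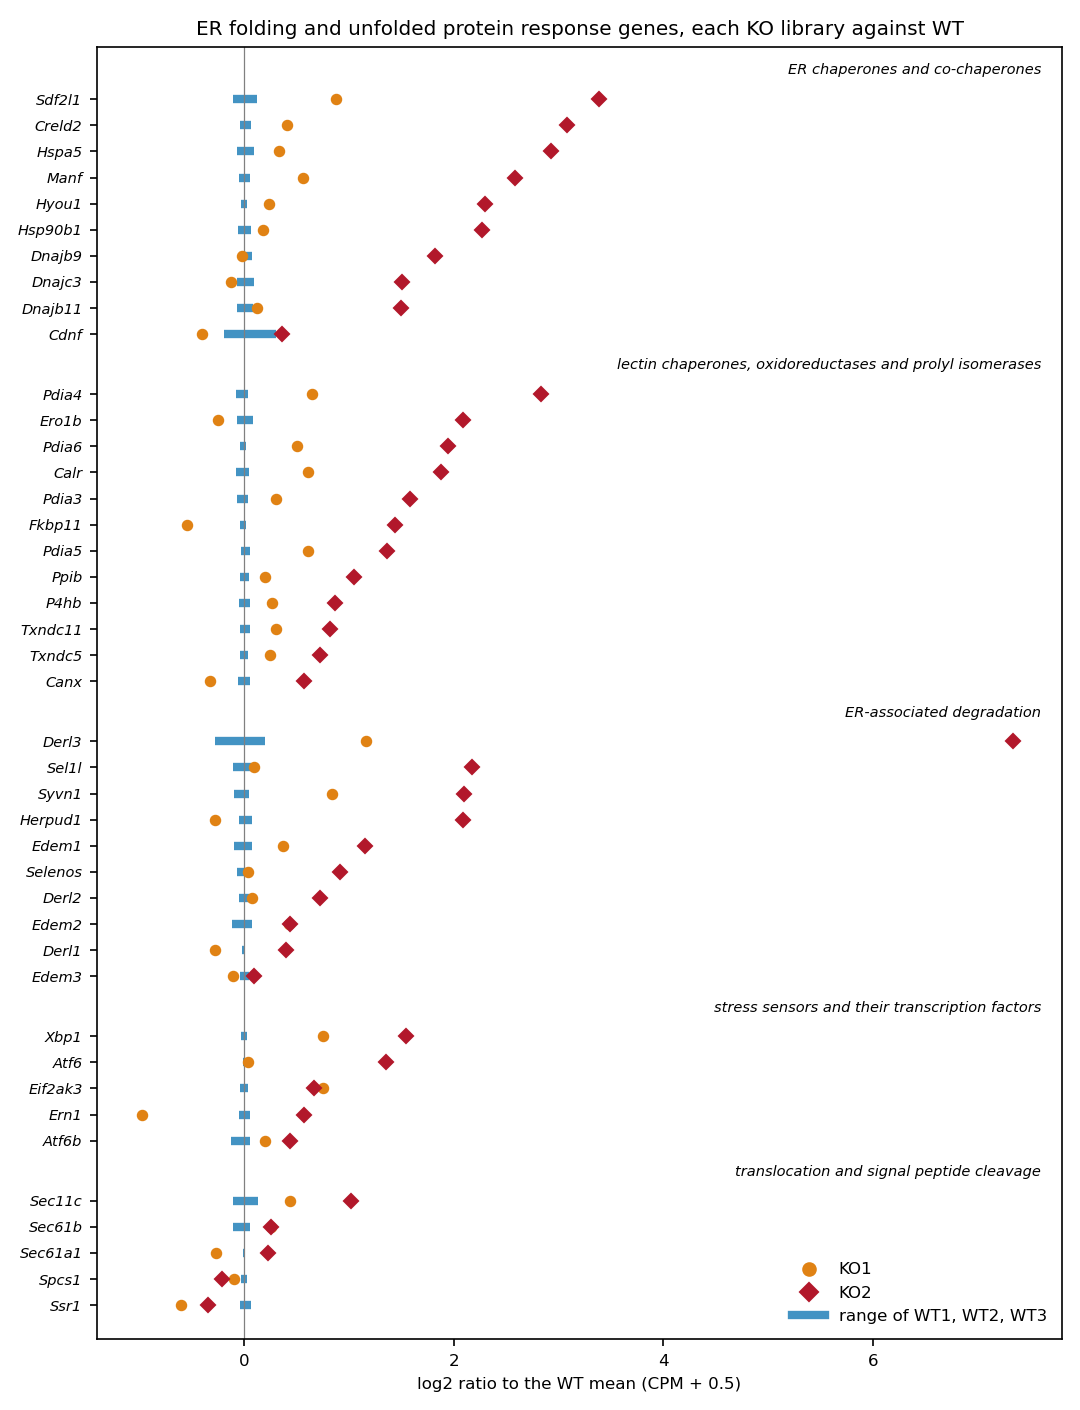
Log2 ratio to the WT mean (CPM, scaled counts, + 0.5, horizontal axis) of the 42 genes, by role, for KO1 (orange circles), KO2 (red diamonds) and the range of the 3 WT libraries (blue bars). KO2 lies to the right of the WT bar for 40 genes and reaches 7.33 for Derl3, while KO1 stays between -0.97 and 1.16, and where no circle is seen (Edem2, Sec61b) it lies under the diamond.

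Against the range of the 3 WT libraries, 28 genes were above it in both KO libraries (66.7%, against 32.5% of all genes tested), and Ssr1 and Spcs1 were below it in both (4.76%, against 34.0%). A split pattern, with KO1 below and KO2 above every WT library, was found for 10 genes (23.8%, against 6.58%): Dnajc3, Cdnf, Canx, Ero1b, Fkbp11, Herpud1, Derl1, Edem3, Ern1 and Sec61a1. Dnajb9 and Selenos had KO1 within the WT range and KO2 above it.

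Of the ER chaperones and co-chaperones, 3 of the 10 measured rose (Sdf2l1, Manf and Creld2), none fell and 7 did not pass. For this and each role that follows, 20.4% of all genes tested rose and 20.4% fell. The median ratio of KO2 to WT was the highest of all roles. They summed to 1821 TPM in KO1 and 8814 TPM in KO2, against 1553, 1495 and 1431 TPM in WT1, WT2 and WT3. The median log2 ratio to WT was 0.21 in KO1 and 2.29 in KO2, and 9 of the 10 were at least 2-fold higher in KO2, against 8.05% of all genes tested.

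Hspa5 (NCBI gene 14828, GRCm38.p6 chromosome 2, 34772090 to 34776529, plus strand) encodes BiP, the Hsp70 chaperone that also holds the sensors inactive. It was at 586 and 3579 TPM in KO1 and KO2, against 508, 466 and 451 TPM in WT1, WT2 and WT3. Both KO libraries were above every WT library, by 1.25-fold in KO1 and 7.62-fold in KO2 relative to the WT mean. Their mean change was 2.15 ± 0.68 on the log2 scale and did not pass (adjusted p = 0.0541), and the KO libraries differed 6.08-fold from each other.

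Sdf2l1, which works with the co-chaperone Dnajb11 to keep clients from aggregating, was at 61.4 and 354 TPM in KO1 and KO2, against 32.7, 36.5 and 31.0 TPM in the WT libraries. It rose by 2.65 ± 0.68 (log2, adjusted p = 0.0296), with both KO libraries above WT. Creld2, a secreted ER protein induced by stress, was at 61.9 and 401 TPM in KO1 and KO2, against 49.5, 46.5 and 45.9 TPM in WT, and rose by 2.31 ± 0.71 (adjusted p = 0.0482). Manf, which helps BiP keep its clients and is also secreted, was at 340 and 1384 TPM in KO1 and KO2, against 231, 245 and 226 TPM in WT, and rose by 1.90 ± 0.54 (adjusted p = 0.0395). For these 3 genes KO1 was 1.33- to 1.84-fold and KO2 5.97- to 10.5-fold above the WT mean.

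The Hsp90 of the ER and the exchange factor of BiP had the same order of libraries without passing. Hsp90b1 was at 543 and 2321 TPM in KO1 and KO2, against 511, 485 and 468 TPM in WT (log2 1.57 ± 0.56, adjusted p = 0.0723). Hyou1 was at 88.5 and 369 TPM in KO1 and KO2, against 76.0, 77.7 and 74.0 TPM in WT (log2 1.62 ± 0.55, adjusted p = 0.0642). Of the J-domain co-chaperones, which feed clients to BiP, Dnajb9 was at 22.3 and 81.6 TPM in KO1 and KO2, against 22.2 to 24.4 TPM in WT, so that KO1 lay inside the WT range. Dnajc3, which was at 27.6 and 86.5 TPM in KO1 and KO2, against 29.1 to 32.7 TPM in WT, had KO1 below it. Dnajb11 was at 90.2 and 237 TPM in KO1 and KO2, against 81.1 to 89.1 TPM in WT. Cdnf, the relative of Manf, was scarce in all 5 libraries (1.16 and 2.17 TPM in KO1 and KO2, against 1.41 to 2.11 TPM in WT), and its change did not pass (adjusted p = 0.951).

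**Figure D2:**
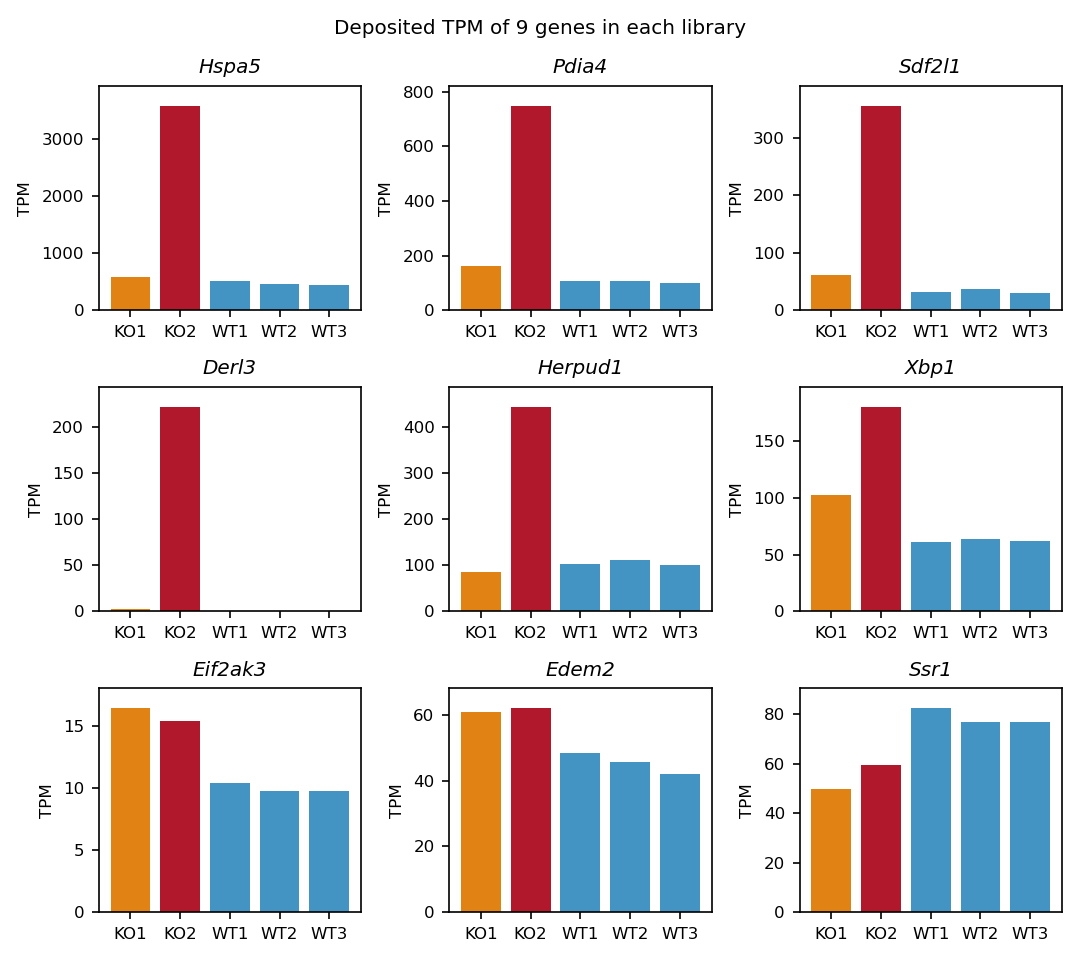
TPM (vertical axis, linear, from 0, scaled by gene) of 9 genes of the module in each library, KO1 in orange, KO2 in red and WT1 to WT3 in blue. Hspa5, Pdia4, Sdf2l1, Derl3 and Herpud1 stand far higher in KO2 than in the other libraries, Xbp1 steps up in KO1 and again in KO2, Eif2ak3 and Edem2 are at like levels in both KO libraries, and Ssr1 is below WT in both.

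Of the lectin chaperones, oxidoreductases and prolyl isomerases, 7 of 12 rose, none fell and 5 did not pass. The median log2 ratio to WT was 0.29 in KO1 and 1.40 in KO2, and all 12 were above the WT mean in KO2, against 9 in KO1. Of all genes tested, 50.5% were above the WT mean in KO2 and 49.0% in KO1. Calr, the soluble lectin chaperone, held the highest level of the module, at 1606 and 3890 TPM in KO1 and KO2, against 1102, 1096 and 1006 TPM in WT, and rose by 1.38 ± 0.36 (log2, adjusted p = 0.0305). Canx, its membrane-bound relative, was at 168 and 311 TPM in KO1 and KO2, against 222, 204 and 212 TPM in WT (log2 0.19 ± 0.26, adjusted p = 0.58). The lectin pair thus differed in KO1, where Calr lay 1.53-fold above and Canx 0.801-fold of the WT mean, with KO2 above WT for both.

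Among the protein disulphide isomerases, which form and reshuffle disulphide bonds, Pdia4 had the largest change, at 164 and 746 TPM in KO1 and KO2, against 109, 109 and 99.9 TPM in WT (log2 2.12 ± 0.58, adjusted p = 0.0357). Pdia6 was at 365 and 997 TPM in KO1 and KO2, against 264, 266 and 254 TPM in WT (log2 1.40 ± 0.39, adjusted p = 0.0383). The scarcer Pdia5 was at 13.4 and 23.1 TPM in KO1 and KO2, against 8.54, 9.22 and 8.55 TPM in WT (log2 1.08 ± 0.24, adjusted p = 0.0196). For all 3, KO1 was 1.42- to 1.57-fold above the WT mean and both KO libraries were above every WT library. P4hb, the founding isomerase and a subunit of collagen prolyl hydroxylase, was at 468 and 710 TPM in KO1 and KO2, against 381 to 411 TPM in WT, and rose by 0.60 ± 0.18 (adjusted p = 0.0487). The thioredoxin-like Txndc5 was at 125 and 175 TPM in KO1 and KO2, against 104 to 109 TPM in WT, and rose by 0.51 ± 0.15 (adjusted p = 0.041). Its relative Txndc11 was at 36.2 and 51.2 TPM in KO1 and KO2, against 25.4 to 29.5 TPM in WT, and rose by 0.60 ± 0.16 (adjusted p = 0.0326). These were smaller changes, with KO2 1.66- to 1.82-fold above WT and no overlap between groups. Pdia3, the partner of Calr and Canx on glycoproteins, was at 634 and 1526 TPM in KO1 and KO2, against 493 to 536 TPM in WT, and just missed the threshold (adjusted p = 0.0576).

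Ero1b, the oxidase that recharges the isomerases, was at 2.53 and 12.5 TPM in KO1 and KO2, against 2.98, 3.11 and 2.65 TPM in WT, with KO1 below and KO2 above WT (adjusted p = 0.135). The prolyl isomerase Fkbp11 split further, at 16.7 and 71.3 TPM in KO1 and KO2, against 24.7, 26.0 and 26.0 TPM in WT (adjusted p = 0.288), which is 0.688-fold and 2.72-fold of the WT mean. Ppib, the ER cyclophilin, was at 354 and 643 TPM in KO1 and KO2, against 305 to 323 TPM in WT (adjusted p = 0.0701). None of these 3 passed with both KO libraries in the test.

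Of the ER-associated degradation genes, 4 of 10 rose, none fell and 6 did not pass, against 20.4% of all genes tested in each direction, with a median log2 ratio to WT of 0.09 in KO1 and 1.03 in KO2. Derl3 (NCBI gene 70377, chromosome 10, 75893398 to 75895941, plus strand) encodes a channel-forming derlin known from secretory tissues. It was at 2.27 and 221 TPM in KO1 and KO2, against 0.82, 0.70 and 0.39 TPM in WT, where it was nearly silent. That is 31 counts in KO1 and 3008 in KO2, against 25 over all 3 WT libraries. By these counts KO2 was 98.1 times KO1 (95% counting interval 69.0 to 145) and 369 times WT (249 to 571), and KO1 was 3.76 times WT (2.15 to 6.64). Derl3 rose by 7.48 ± 1.91 on the log2 scale (adjusted p = 0.0297, range over its alternatives 9.24e-08 to 0.388), a mean that stands for neither KO library.

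The other derlins did not pass. Derl1 was at 78.4 and 126 TPM in KO1 and KO2, against 96.1 to 97.6 TPM in WT, and Derl2 at 21.4 and 33.8 TPM in KO1 and KO2, against 20.4 to 21.3 TPM in WT (adjusted p = 0.713 and 0.117). The Hrd1 ubiquitin ligase complex was represented by its ligase Syvn1 and its adaptor Sel1l. Syvn1 was at 69.9 and 166 TPM in KO1 and KO2, against 41.4, 41.0 and 37.5 TPM in WT, and rose by 1.61 ± 0.35 (log2, adjusted p = 0.019). Sel1l was at 36.8 and 155 TPM in KO1 and KO2, against 36.2, 35.5 and 32.4 TPM in WT, so that KO1 was only just above WT (log2 1.48 ± 0.55, adjusted p = 0.0816). Herpud1, which gathers the complex at the membrane, was at 84.6 and 443 TPM in KO1 and KO2, against 102, 111 and 101 TPM in WT, with KO1 below and KO2 4.27-fold above (adjusted p = 0.137).

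The Edem genes, whose products trim mannose from glycoproteins bound for degradation, took 3 courses. Edem1 was at 37.1 and 64.0 TPM in KO1 and KO2, against 30.7, 29.4 and 27.4 TPM in WT, and rose by 0.81 ± 0.23 (log2, adjusted p = 0.0372). Edem2 was at 60.9 and 61.9 TPM in KO1 and KO2, against 48.5, 45.5 and 42.1 TPM in WT, and rose by 0.44 ± 0.08 (adjusted p = 0.0127), 1.35-fold in each KO library. Edem3 was at 10.5 and 12.1 TPM in KO1 and KO2, against 11.1 to 11.9 TPM in WT (adjusted p = 0.979). Selenos, the selenoprotein that ties p97 to the complex, was at 63.5 and 118 TPM in KO1 and KO2, against 59.5 to 66.3 TPM in WT (adjusted p = 0.135).

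Of the stress sensors and their transcription factors, Eif2ak3 and Xbp1 rose, none fell and 3 did not pass. Eif2ak3 (NCBI gene 13666, chromosome 6, 70844484 to 70905241, plus strand), the PERK kinase, was at 16.4 and 15.4 TPM in KO1 and KO2, against 10.4, 9.78 and 9.73 TPM in WT. It rose by 0.72 ± 0.08 (log2, adjusted p = 0.00368, range over its alternatives 9.02e-09 to 0.0527), 1.69-fold in KO1 and 1.59-fold in KO2. The KO libraries lay close together and well apart from WT, and Eif2ak3 was the 1 gene of the module called whichever WT library was left out. Xbp1 (NCBI gene 22433, chromosome 11, 5520641 to 5525993, plus strand) was at 103 and 180 TPM in KO1 and KO2, against 61.0, 63.7 and 61.8 TPM in WT, and rose by 1.21 ± 0.23 (adjusted p = 0.0126). Gene-level values do not separate spliced from unspliced Xbp1 mRNA.

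Ern1, the IRE1 kinase and nuclease that splices it, was at 2.54 and 7.86 TPM in KO1 and KO2, against 5.52, 5.24 and 5.09 TPM in WT. KO1 was thus at 0.512-fold and KO2 at 1.48-fold of the WT mean, which left no mean change (log2 -0.00 ± 0.45, adjusted p = 0.997). Atf6 was at 10 and 25.0 TPM in KO1 and KO2, against 9.81 to 9.97 TPM in WT (adjusted p = 0.114), and Atf6b, its weaker relative, at 75.7 and 89.8 TPM in KO1 and KO2, against 61.6 to 70.2 TPM in WT (adjusted p = 0.0579). KO1 therefore differed from KO2 in sign for Ern1 and was at 1.03- and 1.15-fold of the WT mean for Atf6 and Atf6b.

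The translocation and signal peptide cleavage genes had the smallest median ratio of KO2 to KO1 of all roles, 1.20, with 2 of 5 rising, 1 falling and 2 not passing, and a median log2 ratio to WT of -0.09 in KO1 and 0.23 in KO2. Ssr1 (NCBI gene 107513, chromosome 13, 37971401 to 37994208, minus strand), a subunit of the translocon-associated complex, was at 49.9 and 59.5 TPM in KO1 and KO2, against 82.4, 76.9 and 77.1 TPM in WT. It fell by 0.47 on the log2 scale (SE 0.10, adjusted p = 0.0203), with both KO libraries below every WT library. Sec61b, a channel subunit, was at 297 TPM in both KO1 and KO2, against 262, 258 and 234 TPM in WT (log2 0.26 ± 0.08, adjusted p = 0.0411). Sec61a1, the channel itself, was at 96.7 and 137 TPM in KO1 and KO2, against 118 to 119 TPM in WT (adjusted p = 0.998). The signal peptidase subunit Sec11c was at 35.8 and 54.2 TPM in KO1 and KO2, against 25.6, 29.1 and 24.4 TPM in WT, and rose by 0.79 ± 0.20 (adjusted p = 0.0288), whereas Spcs1 was at 156 and 144 TPM in KO1 and KO2, against 165 to 173 TPM in WT (adjusted p = 0.143).

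KO2 was above KO1 for 39 of the 42 genes (92.9%, against 50.2% of all genes tested), the exceptions being Eif2ak3, Sec61b and Spcs1. The median ratio of KO2 to KO1 was 2.11 over the module. Ranked by that ratio among the 12957 genes tested, Derl3 came first, Creld2 at rank 35, Hspa5 at 41, Sdf2l1 at 47, Herpud1 at 58, Ero1b at 62 and Pdia4 at 80. In all, 10 genes of the module were among the top 100 ranks (0.772% of genes), 21 among the top 500 (3.86%) and 29 among the top 1000 (7.72%). There is 1 library on each side of this ratio, so no test was made of it.

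**Figure D3:**
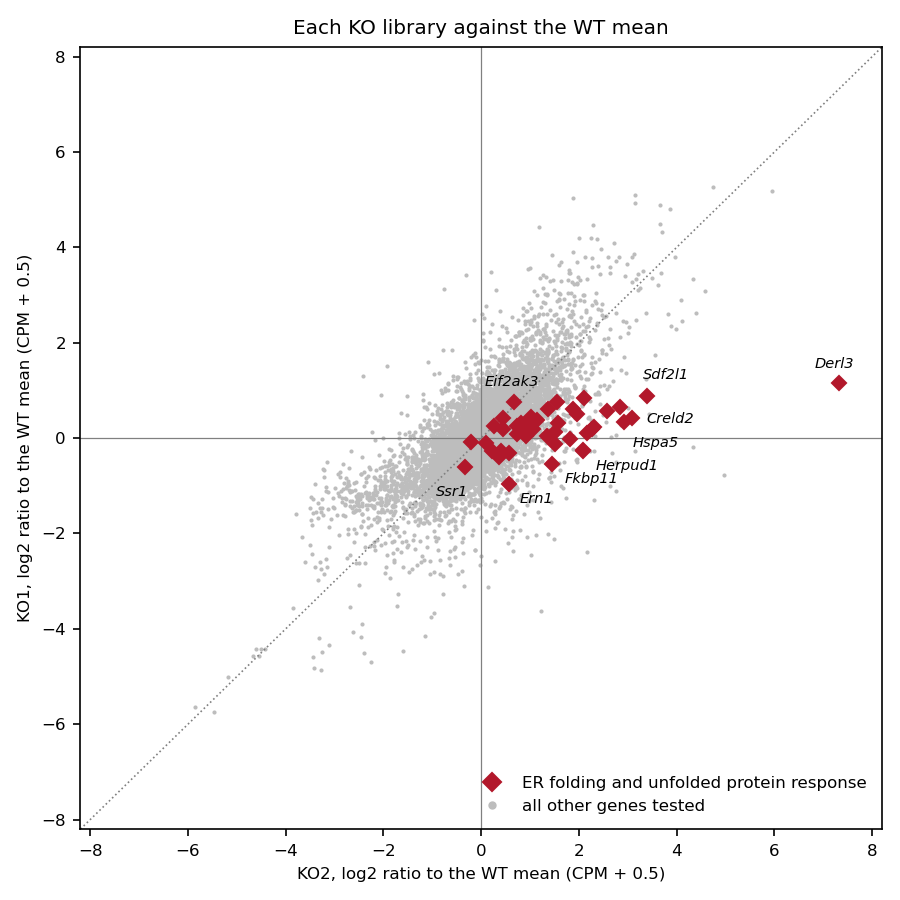
Log2 ratio to the WT mean (CPM + 0.5) in KO2 (horizontal axis) and KO1 (vertical axis) of the module's 42 genes (red diamonds) and all other genes tested (grey points), with equal values on the dotted line. The diamonds spread to the right with little height, out to Derl3 at 7.33 and 1.16, and 39 of them lie below the line, while both axes share the WT libraries.

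The genes with an ERSE are those printed above. Over these 10 genes the fold to WT had a median of 1.29 in KO1 (0.801 to 2.23) and 4.28 in KO2 (1.48 to 161), and 9 were at least 2-fold higher in KO2, the exception being Canx, against 8.05% of all genes tested. Over the 26 genes with a window and no exact ERSE the median was 1.15 in KO1 (0.512 to 1.84) and 1.85 in KO2 (0.789 to 10.5), and 12 were at least 2-fold higher in KO2. Sdf2l1, Pdia4, Manf and Hyou1 have no exact ERSE in their windows or no window, and were 4.94- to 10.5-fold higher in KO2. The ranges of the genes with and without an ERSE overlapped, and the difference was not tested.

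Of 172 other genes of the same pathways, kept in 4 lists, 168 were tested, of which 32 rose (19.0%), 14 fell (8.33%) and 122 did not pass, where 20.4% of all genes tested rose and 20.4% fell. The share that rose was thus near that of all genes, and the share that fell was below it. Their median log2 ratio to WT was -0.03 in KO1 and 0.24 in KO2, and KO2 was above KO1 for 122 of the 168, against 50.2% of all genes tested. The counts changed with the libraries, at 11 rises without WT1, WT2 or WT3, 88 without KO1 and 49 without KO2, and at 2, 5 and 4 falls without WT1, WT2 and WT3, 31 without KO1 and 58 without KO2. Of all genes tested 29.3% were higher and 30.5% lower without KO1, and 30.0% were higher and 30.9% lower without KO2. Without WT1, WT2 and WT3, 980, 1133 and 1116 of all genes rose and 977, 1149 and 1128 fell. With a separate spread per group 18 genes of the lists rose and 10 fell, where 1625 of all genes rose and 1567 fell.

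Of 56 other ER folding and degradation genes 16 rose (28.6%) and 5 fell (8.93%), against 20.4% of all genes tested in each direction. KO2 was above KO1 for 38 of the 56, against 50.2% of all genes tested. Os9, a lectin that hands misfolded glycoproteins to the Hrd1 complex, was at 101 and 107 TPM in KO1 and KO2, against 55.4, 53.7 and 51.5 TPM in WT (log2 0.99 ± 0.07, adjusted p = 0.00187). Qsox1, an oxidase that makes disulphides in secreted proteins, was at 163 and 122 TPM in KO1 and KO2, against 36.9, 36.2 and 38.2 TPM in WT (log2 1.97 ± 0.15, adjusted p = 0.00206). The thioredoxin-like Txndc16 was at 6.88 and 4.86 TPM in KO1 and KO2, against 1.61, 1.52 and 1.81 TPM in WT (log2 1.84 ± 0.22, adjusted p = 0.00413). All 3 were above every WT library in both KO1 and KO2, and each was called whichever WT library was left out. They were named for the smallest p of the list, which favours both traits, so these do not describe the list.

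Of 63 translocation, N-glycosylation and COPII export genes 6 rose (9.52%) and 5 fell (7.94%), both below the 20.4% of all genes tested in each direction. KO2 was above KO1 for 48 of the 63, against 50.2% of all genes tested. Kdelr3, a receptor that returns escaped chaperones to the ER, was at 26.5 and 24.7 TPM in KO1 and KO2, against 13.8, 12.7 and 11 TPM in WT (log2 1.06 ± 0.13, adjusted p = 0.00426). Sec23b, a coat protein of ER export vesicles, was at 52.8 and 57.4 TPM in KO1 and KO2, against 77.5, 74.8 and 77.2 TPM in WT, and fell by 0.45 on the log2 scale (adjusted p = 0.00792). Alg13, of the glycan precursor pathway, was at 1.91 and 2.52 TPM in KO1 and KO2, against 5.91, 5.25 and 5.12 TPM in WT, and fell by 1.27 (adjusted p = 0.00981). Both KO libraries lay on the same side of WT for all 3, which their choice by the smallest p favours.

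Of 20 collagen folding genes of the ER 8 rose (40.0%) and none fell, against 20.4% of all genes tested in each direction. Here KO1 was the higher KO library, with a median log2 ratio to WT of 0.54 in KO1 and 0.32 in KO2. P3h1, a collagen prolyl hydroxylase, was at 21.1 and 17.3 TPM in KO1 and KO2, against 7.38, 6.91 and 7.57 TPM in WT (log2 1.40 ± 0.11, adjusted p = 0.00232). Plod3, a lysyl hydroxylase, was at 55.7 and 53.9 TPM in KO1 and KO2, against 36.1, 33.1 and 32.9 TPM in WT (log2 0.71 ± 0.07, adjusted p = 0.00333). Creb3l1, a membrane-bound relative of ATF6 that drives collagen secretion, was at 19.6 and 30.1 TPM in KO1 and KO2, against 6.72, 9.22 and 5.88 TPM in WT (log2 1.79 ± 0.26, adjusted p = 0.00635). KO2 was above KO1 for 7 of these 20 genes, against 50.2% of all genes tested. Fibroblast markers moved in that order too: the 14 markers summed to 124 and 58.0 TPM in KO1 and KO2, against 41.1 to 45.2 TPM in WT, with Fbln1 at 71.1 and 38.8 TPM, against 39.2 to 39.8 TPM, and Col1a1 at 6.18 and 1.38 TPM, against 0.05 to 0.53 TPM. In KO1 none of the 14 was at 0, in KO2 1, and in WT1, WT2 and WT3 2, 1 and 5, and the part of these cells in the collagen folding values was not tested.

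Of 29 ATF4 and CHOP targets, the arm downstream of PERK, 2 rose (6.90%) and 4 fell (13.8%) with both KO libraries in the test, against 20.4% of all genes tested in each direction. The median log2 ratio to WT was -0.83 in KO1 and 0.51 in KO2, and KO2 was above KO1 for all 29, against 50.2% of all genes tested. With KO1 left out 18 were higher and 6 lower than in WT, where 29.3% of all genes tested were higher and 30.5% lower. With KO2 left out 2 were higher and 21 lower, where 30.0% of all genes tested were higher and 30.9% lower. The stress-induced mTOR inhibitor Ddit4 was at 236 and 289 TPM in KO1 and KO2, against 114, 144 and 139 TPM in WT (log2 1.01 ± 0.14, adjusted p = 0.00566). The serine synthesis enzymes Psat1 and Phgdh fell by 0.75 and 0.69 on the log2 scale (adjusted p = 0.0288 and 0.0438). Psat1 was at 218 and 335 TPM in KO1 and KO2, against 464 to 478 TPM in WT, and Phgdh at 275 and 437 TPM, against 567 to 596 TPM.

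Further genes of this arm were chosen after their values were seen. Ddit3, which encodes CHOP, was at 42 and 284 TPM in KO1 and KO2, against 41.1, 40.5 and 53.9 TPM in WT (adjusted p = 0.0805), so KO1 was within the WT range. Trib3, a pseudokinase induced by CHOP, was at 30.2 and 223 TPM in KO1 and KO2, against 89.5, 101 and 105 TPM in WT, and Chac1, a glutathione-degrading enzyme, at 42.8 and 151 TPM, against 118, 140 and 120 TPM. Both lay below WT in KO1 and above it in KO2, and neither passed (adjusted p = 0.703 and 0.595). Ppp1r15a, the phosphatase subunit that restarts translation, was at 46.4 and 216 TPM in KO1 and KO2, against 73.8, 72.5 and 55.0 TPM in WT (adjusted p = 0.231). Atf4 itself was at 476 and 776 TPM in KO1 and KO2, against 696 to 744 TPM in WT (adjusted p = 0.536). Asns, asparagine synthetase, was below WT in both KO libraries, at 255 and 382 TPM, against 471 to 497 TPM, and fell by 0.59 (adjusted p = 0.0481).

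**Figure D4:**
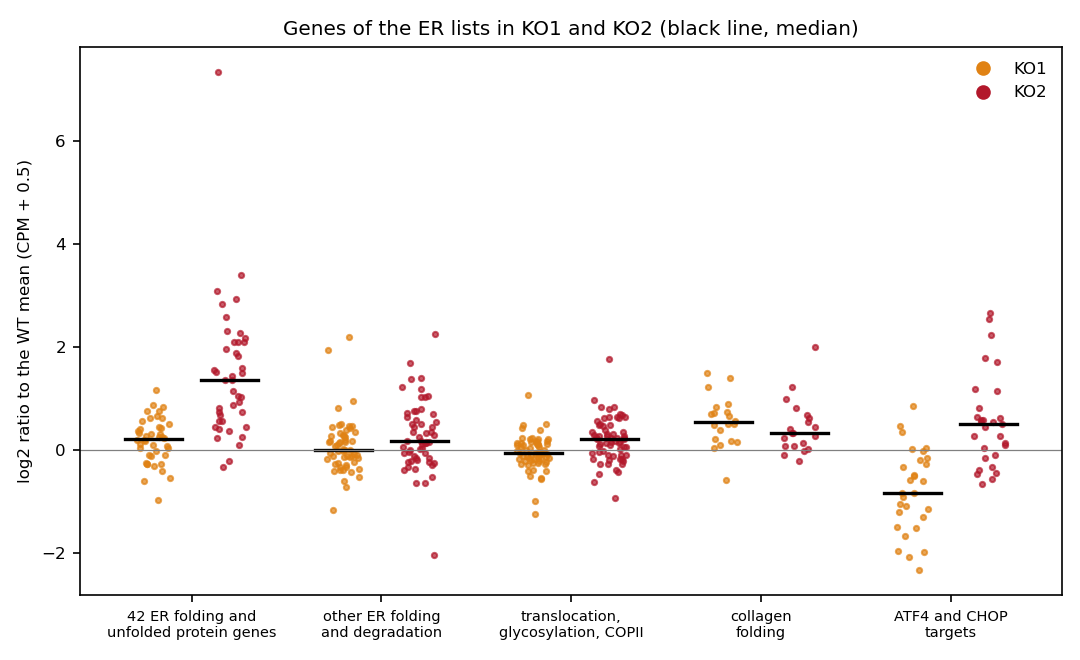
Log2 ratio to the WT mean (CPM + 0.5, vertical axis) of each tested gene in KO1 (orange) and KO2 (red) for the module and 4 further lists, with medians as black lines. The medians are 0.22 and 1.36 in KO1 and KO2 for the module, 0.54 and 0.32 for collagen folding genes, and -0.83 and 0.51 for ATF4 and CHOP targets. They are -0.01 and 0.17 for other ER folding and degradation genes, and -0.06 and 0.21 for translocation, N-glycosylation and COPII export genes.

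Markers of other cell types, some of which carry a large ER, were set beside the KO2 levels. Of the B cell and plasma cell list, Sdc1, which keratinocytes also express, made up nearly all of the sum, at 1182 and 850 TPM in KO1 and KO2, against 1146 to 1190 TPM in WT. Jchain was at 0.13 and 0.18 TPM in KO1 and KO2 and at 0 in WT, and Mzb1 was at 0.11 and 0.29 TPM in KO1 and KO2, against 0 to 0.17 TPM in WT. The more abundant Prdm1 went the other way, at 2.61 and 10.1 TPM in KO1 and KO2, against 13.8 to 18.5 TPM in WT. Pou2af1 was not raised, at 0.11 and 0.04 TPM in KO1 and KO2, against 0.08 to 0.26 TPM in WT. The sweat gland and exocrine list summed to 43.4 and 34.3 TPM in KO1 and KO2, against 37.1 to 51.8 TPM in WT. Its secretory factor Bhlha15, also among the other ER folding and degradation genes, was at 0.27 and 1.72 TPM, against 0.11 to 0.17 TPM. Krt18 was lower in both KO libraries, at 12.1 and 16.5 TPM, against 24.6 to 34.9 TPM. Krt8 was highest in KO1, at 19.1 and 7.87 TPM, against 3.94 to 7.06 TPM. The macrophage or Langerhans cell list summed to 73.6 and 69.6 TPM in KO1 and KO2, against 41.9 to 56.5 TPM, mostly Cd68, with Ptprc at 0 and 0.04 TPM against 0.02 to 0.06 TPM. The T cell list summed to 17.5 and 6.88 TPM against 1.42 to 2.76 TPM, mostly Thy1, which the fibroblast list holds too. Suprabasal keratinocyte markers summed to 1667 and 2040 TPM in KO1 and KO2, against 1211 to 1643 TPM in WT. Sbsn, at 937 and 1559 TPM in KO1 and KO2, against 848 to 1102 TPM in WT, set that order, whereas Krt1 was highest in KO1, at 267 and 29.7 TPM, against 5.99 to 10.5 TPM, as was Krt10, at 12.7 and 2.84 TPM, against 0.84 to 1.49 TPM. Lor was highest in KO2, at 3.53 and 9.38 TPM, against 3.79 to 5.81 TPM, as was Flg, at 1.01 and 4.04 TPM, against 1.15 to 3.14 TPM. Ivl and Casp14 were below WT in both KO libraries, Dsg1a and Tgm3 were highest in KO1, and Krtdap lay within the WT range. Sebocyte markers summed to 508 and 722 TPM in KO1 and KO2, against 590 to 624 TPM in WT, an order set by Plin2, at 375 and 667 TPM, against 444 to 467 TPM, with Scd1 at 122 and 29.9 TPM, against 117 to 128 TPM. Melanocyte markers summed to 8.00 and 11 TPM in KO1 and KO2, against 5.83 to 7.03 TPM in WT, endothelial markers to 2.53 and 2.62 TPM against 2.61 to 2.76 TPM, and mast cell markers to 1.04 and 0.50 TPM against 0.43 to 0.74 TPM. The sums of the suprabasal keratinocyte, melanocyte and sebocyte lists, and of no other list, were higher in KO2 than in all 4 other libraries, with none at 0 among suprabasal markers, 1 and 0 of 8 melanocyte markers at 0 in KO1 and KO2 against 0 to 1 in WT, and 2 of 8 sebocyte markers at 0 in each KO library against 0 to 1 in WT. The part of those lists in the module's values was not tested.

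Reads of 9 genes of the module may be shared with a neighbour whose exons they overlap in the GENCODE annotation of the same build, since whether the counting used strand is not stated. Manf overlaps Dcaf1 and, on the same strand, Rbm15b, and the others overlap a gene on the opposite strand, namely Derl2 with Mis12, Pdia3 with Catsper2, Pdia6 with Atp6v1c2, Ppib with Snx22, Spcs1 with Glt8d1, Syvn1 with Mrpl49, Txndc11 with Snn and Txndc5 with Bmp6. Pseudogenes were searched only by the name of a gene of the module with the ending -ps. That search found Calr-ps, a processed pseudogene on chromosome 2, and pseudogenes under other names were not looked for. The values of Calr and of the overlapping genes are uncertain to that extent.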

How the data were processed

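Counts came from 2 KO and 3 WT libraries, grouped by title. Per the submitters' processing notes, the authors used RSEM 1.3.1 and the build GRCm38.p6 for the expected counts they deposited, and 32.1 to 34.0% of values per library were not whole. The deposited TPM values, per the file headers, are scaled by the authors for transcript length and library. The deposited FPKM columns were not used here. Neither the aligner nor any use of strand is given in the sources used here. RSEM shares reads among genes with like sequence.

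Expected counts were rounded, and the test was that of edgeR 4.0.16 in R 4.3.3 (filterByExpr by group, TMM factors 0.988 to 1.02, quasi-likelihood test, two-sided, Benjamini-Hochberg adjustment over all genes tested, threshold 0.05). Standard errors come from the test statistic, n is 2 KO and 3 WT libraries, and ± is SE. Ratios of single libraries to the WT mean use TMM-scaled CPM plus 0.5, which understates changes of scarce genes. Counting intervals are exact, from the binomial split of the counts, and cover counting error only. Alternatives were DESeq2 1.42.0 (size factors and test), limma 3.58.1 (voom, voom with a separate spread per group, and log2 TPM with a pseudocount of 1 or 0.1 and a minimum mean TPM of 1 or none), total scaling, other count filters, a replicate block and each library left out.

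No pair of libraries agreed within sampling error (chi-square per degree of freedom 107 for the KO pair and 3.41 to 6.35 for WT pairs). The genes and lists were chosen with earlier results of these data known. All genes of the module are named, as are Angptl4 and the 3 genes of each pathway list with the smallest p. Ddit3, Trib3, Chac1, Ppp1r15a, Atf4, Asns and the single cell type markers were chosen after their values were seen.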

Additional observations from a re-analysis of the deposited data

How the results depend on the processing

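The count of 18 rises in the module was 11 with limma-voom, 8 with limma on log2(TPM + 1) or log2(TPM + 0.1), 6 without a minimum TPM, 1 with the replicate block and 1 to 38 with a library left out. The 1 fall became 0 with the block and 0 to 7 with a library left out. Of all genes 2638 rose and 2648 fell, against 1625 and 1567 with a separate spread per group, 797 and 783 with the block, and 980 to 3975 and 977 to 4093 with a library left out. The wider lists had 18 rises with a separate spread, 19 on log2(TPM + 1) without a minimum, 8 with the block and 11 to 88 with a library left out, and 1 fall with the block and 2 to 58 with a library left out. Over all genes, limma-voom gave 2519 rises. Limma on log2(TPM + 1) gave 2111, on log2(TPM + 0.1) 2112, and without a minimum TPM 2112. Under limma the module's count of rises thus fell further than the count over all genes. Angptl4 changed by -2.51 with a separate spread and did not pass. The KO2 median ratio of the module was 1.28 on log2(TPM + 1), against 1.36. With a library left out, the log2 change ranged over both signs for Canx (-0.31 to 0.56), Fkbp11 (-0.56 to 1.49), Herpud1 (-0.28 to 2.09), Derl1 (-0.27 to 0.39), Sec61a1 (-0.26 to 0.22), Trib3 (-1.67 to 1.19) and Ppp1r15a (-0.50 to 1.70), which turned without KO2, and for Ern1 (-1.02 to 0.58) and Chac1 (-1.52 to 0.27), which turned without KO1. Signs also turned, with the turned value not past the threshold, for Ero1b (-0.26 to 2.17), Dnajc3 (-0.11 to 1.51), Dnajb9 (-0.01 to 1.83), Cdnf (-0.49 to 0.41), Edem3 (-0.09 to 0.09) and Atf4 (-0.57 to 0.13). Fewer samples enter the fits with a library left out, and for the other settings the cause was not tested. The same 19 calls were made under both other scalings. Libraries share only a number across groups (correlations of deviations 0.00714 for KO1 with WT1 and 0.0676 for KO2 with WT2), so the replicate block, which kept Xbp1 alone, is not a pairing that the labels state. Depth limits scarce genes such as Derl3 in WT and Cdnf.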
